A study of Rattus norvegicus with 16 samples.

Results

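Skin taken 7 days after its cutaneous nerves were cut was compared with naïve skin, using 5 arrays of denervated and 6 arrays of naïve skin, which make 11 of the 16 arrays of the series. The arrays were chosen by their source label alone. All came from adult female Sprague-Dawley rats, and the group sizes are given as numbers of rats. The p-values therefore measure a spread between rats, pooled over all 16 arrays of the series. Each array held dorsal hairy skin. In the denervated rats left cutaneous nerves on both sides of the T11 segment were cut, and their proximal stumps were sealed with ligatures. The T11 nerves were spared, and the skin was sampled from the rostral denervated zone. The naïve rats had no operation and were sampled at the same place. Because no group had an incision without nerve section, loss of innervation and surgery cannot be told apart. The samples also held skeletal muscle, by the muscle actin values given below. Whether that muscle kept its nerve supply was not measured. The remaining 5 arrays, from skin 14 days after the cut, entered the model to estimate the spread and are described only beside genes of the 7-day comparison.

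Cutaneous nerves carry sensory and sympathetic axons wrapped by Schwann cells. When the axons are cut, the distal nerve degenerates, Schwann cells leave the myelinating state and macrophages clear the debris, while spared neighbouring axons can sprout into the denervated skin. In repair after injury, fibroblasts lay down a provisional matrix of fibronectin, tenascins and proteoglycans and modify collagen with dedicated enzymes. Hairy skin also passes through a hair cycle, in which follicles in growth express the keratins and trichohyalin of the shaft and its inner sheath.

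Values are log2 expression after robust multi-array averaging (RMA), collapsed to the median probeset of each of 14217 genes, so a difference of 1 is a 2-fold difference. The basal epidermal keratin Krt5 lay at 12.47 or above and skeletal muscle actin Acta1 at 13.44 or above in every naïve and 7-day array. Epidermis and skeletal muscle were thus both present. The arrays of a group were least alike in naïve skin, where the lowest correlation across genes was 0.912, against 0.972 at 7 days. It was 0.993 at 14 days, so the spread used by limma was pooled with arrays more alike than those compared. Naïve replicates 1 and 2 stood apart from the other naïve arrays in hair follicle genes, and naïve replicates 4 and 5 had the lowest values of matrix and macrophage genes. Control probe ratios of RNA integrity did not point one way. Beta-actin 3 prime minus middle signal was 0.962, 1.20 and 0.848 in naïve replicates 4, 5 and 6, from 0.176 to 0.519 in naïve replicates 1 to 3 and from 0.202 to 0.290 at 7 days. Beta-actin 3 prime minus 5 prime signal went the other way, reading 0.499 in naïve replicate 4 and 0.142 in replicate 5, while naïve replicates 1, 2, 3 and 6 lay between 0.578 and 0.690 and the 7-day arrays between 0.583 and 0.692. For Gapdh, 3 prime minus middle ran from -0.085 to 0.024 in naïve skin and from -0.108 to 0.041 at 7 days, and 3 prime minus 5 prime from 0.290 to 0.338 and from 0.234 to 0.423. The results below are therefore given by whether the groups overlapped and by what remained when these naïve arrays were left out.

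At 7 days, limma called 1116 genes higher (7.85% of all genes) and 378 lower (2.66%) at an adjusted p under 0.05. Subtracting each array's median gave 951 higher and 1492 lower, and quantile normalizing again gave 951 and 729, so the share of calls that were lower depended on the scaling. Of the 1116 genes, 445 had all 5 values at 7 days above all 6 naïve values, and of the 378, 127 had all 5 below. Such genes were 3.13% and 0.893% of all genes tested. Regardless of the test, 470 genes (3.31%) lay above every naïve array and 192 (1.35%) below, of which 25 and 65 did not pass. Changes that held were thus mostly increases on this scaling, but with array medians subtracted 309 genes held upward and 488 downward, and with quantile normalization 390 and 242.

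A smaller share of the calls that held was lost when the arrays in the model changed. These genes were picked for separation in the same arrays, so this is a description and no separate support. Of the 445 higher genes, 352 were called in each of the 11 fits that left out 1 array, and of the 671 higher genes with overlapping groups, 160 were. Without naïve replicates 4 and 5, the counts over all genes were 345 higher (2.43%) and 46 lower (0.324%), and 286 of the 445 but 56 of the 671 were still called. With the naïve and 7-day arrays alone in the model, 264 genes (1.86%) were higher and 31 (0.218%) lower, among them 230 of the 445 and 34 of the 671. Without naïve replicates 1 and 2, 2706 genes (19%) were higher and 2334 (16.4%) lower, and 441 of the 445 and 632 of the 671 remained. The median log2 fold change was 0.71 in the 445 and 0.57 in the 671. Of the lower genes, 58 of the 127 that held and 17 of the 251 with overlap were called in each single-array omission. Without naïve replicates 4 and 5, 36 of the 127 and 8 of the 251 remained, so most decreases were called only with those arrays in the model.

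**Figure D1:**
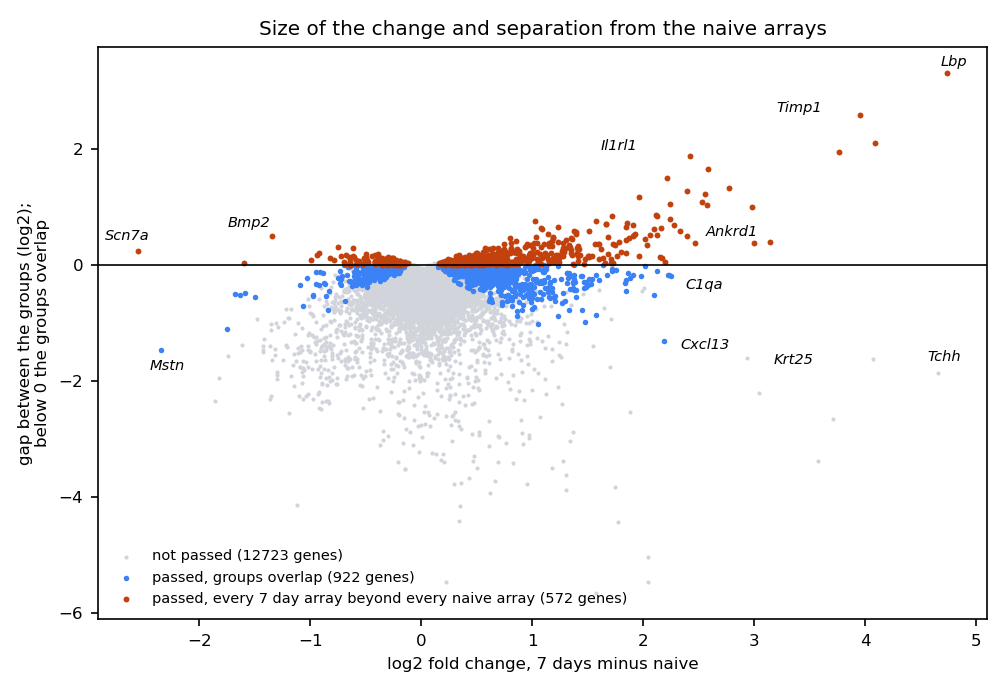
Each point is 1 of 14217 genes, with the log2 fold change (7 days minus naïve) on the x axis and the gap between the groups in log2 units on the y axis (the nearest 7-day and naïve values, positive where all 5 arrays at 7 days lay beyond all 6 naïve arrays). The 572 genes that passed limma without overlap lie above the line, led by Lbp with a gap of 3.30, while 922 passed with overlapping groups, and Tchh and Krt25 had large fold changes but lay below the line and did not pass.

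The widest separation was in Lbp, which encodes lipopolysaccharide binding protein, which hands bacterial lipid to innate receptors. Its lowest, median and highest naïve values were 3.96, 4.75 and 5.41, and the 7-day values were 8.95, 8.72, 10.47, 10.44 and 8.88. The lowest array at 7 days was thus 3.30 above the highest naïve array, the widest gap of any gene, and the log2 fold change was 4.74 (SE 0.46, adjusted p = 0.000191). Its naïve values lay in the lower part of the scale, whose 1st percentile was 3.71 to 3.80 per array. Il1rl1, the receptor of the alarmin interleukin 33, lay between 5.54 and 5.94 in naïve skin and at 7.84, 8.77, 7.82, 8.71 and 7.93 at 7 days (log2 fold change 2.42, SE 0.27, adjusted p = 0.000342). The naïve arrays were close together in this gene, so its increase did not turn on any of them. Gpr15lg, the ligand of a receptor that guides T cells to epithelia, had naïve values of 4.73 to 5.39 and 7-day values of 6.96, 8.20, 7.33, 7.10 and 6.88 (2.22, SE 0.44, adjusted p = 0.00738).

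After Lbp, the widest gaps were in Timp1, Sfrp2 and Cthrc1. Timp1, a secreted inhibitor of matrix metalloproteinases, had naïve values of 6.12, 7.41 and 8.09 (lowest, median, highest) and 7-day values of 10.71, 11.07, 11.44, 12.22 and 10.66. Its log2 fold change was 3.95 (SE 0.40, adjusted p = 0.000191), and the ranges were far apart. Sfrp2, a secreted Wnt modulator of fibroblasts, ran from 5.71 to 7.69 with a naïve median of 6.60 and lay at 9.79, 10.52, 10.52, 12.11 and 10.50 at 7 days (4.09, SE 0.46). Cthrc1, a secreted protein of activated fibroblasts, had a naïve median of 6.26 and 7-day values of 9.13, 9.70, 9.40, 11.31 and 10.04 (3.77, SE 0.47). In these 3 genes naïve replicates 4 and 5 were the lowest or next to lowest, yet even the highest naïve arrays, replicate 1 or 3, lay well below the 7-day range. Sfrp4, of the same family as Sfrp2, lay between 5.16 and 6.94 and between 7.30 and 8.03 (1.56, SE 0.27, adjusted p = 0.00367). Of 17 measured Wnt modulators, these 3 held against every naïve array, 1 more rose with overlap (Fzd2, a Wnt receptor, at 0.51, named here after its value was seen) and none fell. Of all genes, 7.85% were higher and 3.13% were higher and held.

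Structural proteins of the matrix and the enzymes that modify them followed. Fn1, which encodes fibronectin, had naïve values of 9.06, 10.61 and 11.42 (lowest, median, highest) and 7-day values of 12.85, 13.11, 12.87, 13.46 and 12.63, with a log2 fold change of 2.55 (SE 0.35, adjusted p = 0.00132). Its naïve range was 2.36 wide, and the groups still did not overlap. Col5a3, a chain of type V collagen, lay between 8.07 and 9.03 in naïve skin and at 10.30, 11.13, 10.72, 11.70 and 10.56 at 7 days (2.39, SE 0.24, adjusted p = 0.000191). P4ha3, a catalytic subunit of the prolyl hydroxylase that stabilizes collagen, lay between 5.42 and 5.93 in naïve skin and at 7.69, 7.58, 8.34, 9.70 and 7.89 at 7 days (2.59, SE 0.30). Replicate 4 had the highest 7-day value in Timp1, Sfrp2, Cthrc1, Fn1, Col5a3 and P4ha3, and all 6 genes were also called without it. Lrrc17, a secreted leucine-rich repeat protein, had 7-day values of 8.27, 9.05, 8.81, 10.55 and 9.23 against 6.06 to 6.95 in naïve skin (2.77, SE 0.35). Msln, the surface protein mesothelin, had values of 8.61, 8.44, 8.01, 9.20 and 8.58 against 6.41 to 6.85 (1.96, SE 0.26). Srpx2, a secreted sushi-repeat protein, had values of 6.99, 7.82, 7.47, 9.47 and 8.15 against 5.00 to 5.92 (2.53, SE 0.35). All 12 genes with the widest upward gap were called in every single-array omission, without naïve replicates 4 and 5, and with the naïve and 7-day arrays alone.

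**Figure D2:**
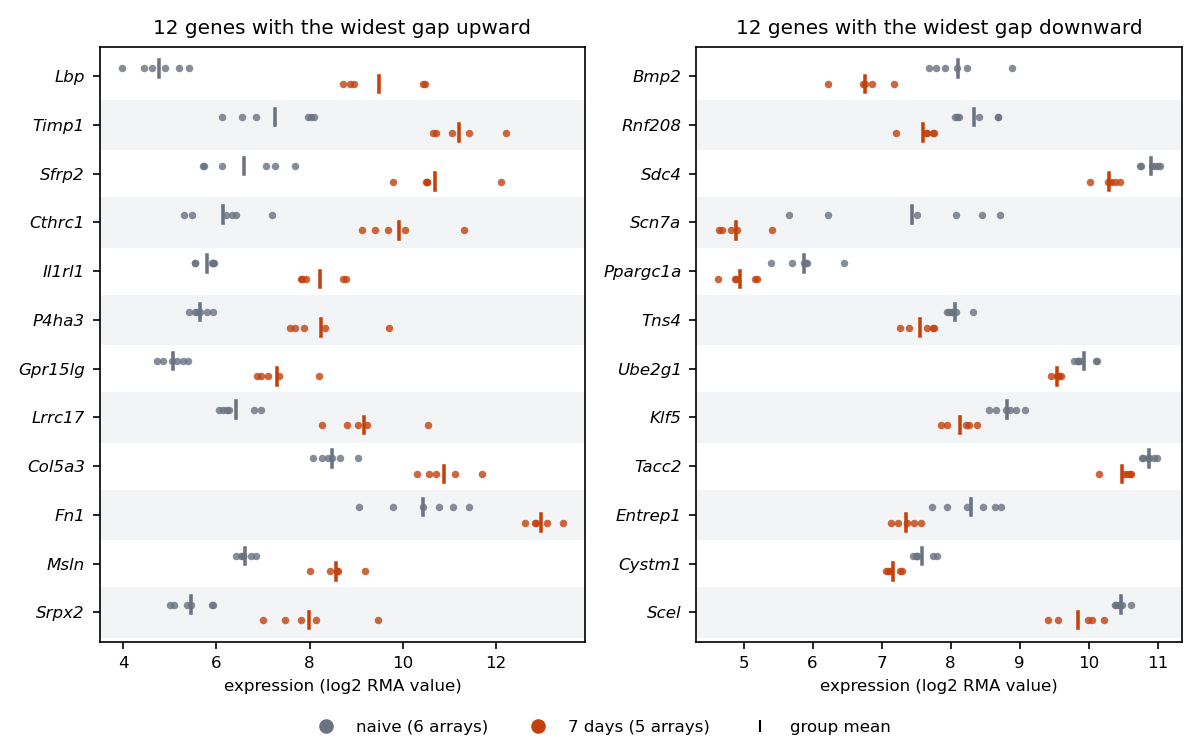
Log2 RMA values (x axis) of the 12 genes with the widest gap upward (left) and downward (right) among genes that passed, with a grey point for each of 6 naïve arrays, an orange point for each of 5 arrays at 7 days and a bar at each group mean. No gene has a 7-day point within the naïve range, and the gaps run from 1.07 to 3.30 upward but only from 0.15 to 0.50 downward.

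The promoters of these genes, from 250 bases before to 50 after the start in RefSeq (GRCr8), were searched on both strands for 2 motifs of injury-responsive factors, the AP-1 motif TGANTCA and the STAT motif, which is TTC and GAA with any 3 bases between. RefSeq sequences were found for 8 of the 12 genes with the widest upward gap. None held the AP-1 motif, against 5.44% of 11733 promoters of genes on the array, and 2, Lrrc17 and Srpx2, held the STAT motif, against 6.99%. Of 10 promoters of the genes with the widest downward gap, 1 held the AP-1 motif, that of Scel, and 1 the STAT motif. The promoters of Lrrc17 (chr4:14423999-14424298, minus strand), Srpx2 (chrX:101399873-101400172, plus strand) and Scel (chr15:86754382-86754681, plus strand) are shown 5′ to 3′ because they hold these matches, which are in capitals. The matches start at -132, -36 and -37 relative to the start and are letters in a window, not measured binding.
Lrrc17: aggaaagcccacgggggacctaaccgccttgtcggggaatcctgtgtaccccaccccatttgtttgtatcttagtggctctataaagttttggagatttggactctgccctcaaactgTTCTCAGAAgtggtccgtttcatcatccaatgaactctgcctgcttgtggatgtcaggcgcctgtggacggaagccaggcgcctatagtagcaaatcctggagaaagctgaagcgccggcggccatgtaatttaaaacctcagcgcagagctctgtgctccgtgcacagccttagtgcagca
Srpx2: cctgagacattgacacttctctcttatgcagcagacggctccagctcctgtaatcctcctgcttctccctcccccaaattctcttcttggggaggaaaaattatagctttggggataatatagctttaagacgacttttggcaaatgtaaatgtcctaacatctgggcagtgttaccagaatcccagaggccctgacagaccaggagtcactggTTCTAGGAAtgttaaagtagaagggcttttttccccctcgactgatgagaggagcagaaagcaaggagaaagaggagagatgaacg
Scel: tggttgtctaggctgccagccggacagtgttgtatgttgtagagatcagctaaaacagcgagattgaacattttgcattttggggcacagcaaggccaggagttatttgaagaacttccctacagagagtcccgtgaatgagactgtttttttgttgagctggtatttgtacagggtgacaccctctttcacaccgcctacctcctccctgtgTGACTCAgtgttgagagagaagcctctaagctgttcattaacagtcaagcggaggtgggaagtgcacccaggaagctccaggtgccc

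Decreases that held against every naïve array were smaller. Of the 127 such genes, 3 had a log2 fold change of at least 1 in size, against 140 of the 445 increases, and the median was -0.30. Scn7a, a sodium channel of glia including non-myelinating Schwann cells, had the largest. Its naïve values were 6.22, 5.66, 7.51, 8.71, 8.08 and 8.46 in replicates 1 to 6, and its 7-day values were 4.68, 5.41, 4.91, 4.81 and 4.64 (log2 fold change -2.55, SE 0.46, adjusted p = 0.00493). The groups did not overlap, but the gap was 0.25, between naïve replicate 2 and 7-day replicate 2. Naïve replicates 1 and 2 were well below the other 4 naïve arrays. Bmp2, a bone morphogenetic protein expressed by epidermis and follicles, had the widest downward gap, 0.50. Its naïve values were 7.68, 8.0 and 8.89 (lowest, median, highest) and its 7-day values 6.87, 7.18, 6.73, 6.22 and 6.76 (-1.35, SE 0.19, adjusted p = 0.00159). Fgf18, a growth factor of the resting hair follicle, was at 5.35, 4.92, 6.26, 6.81, 7.25 and 6.91 in naïve skin and at 4.44, 4.89, 4.61, 4.66 and 4.65 at 7 days (-1.60, SE 0.33, adjusted p = 0.0093), with a gap of 0.03.

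Several of the decreases that held were small, with naïve arrays close together. Sdc4, a cell-surface heparan sulfate proteoglycan, lay between 10.75 and 11.03 in naïve skin and at 10.32, 10.46, 10.38, 10.03 and 10.28 at 7 days (-0.62, SE 0.08, adjusted p = 0.000816). Klf5, a transcription factor of basal keratinocytes, lay between 8.55 and 9.07 and at 8.38, 8.26, 8.23, 7.87 and 7.95 (-0.68, SE 0.12). Scel, which encodes sciellin of the cornified envelope, lay between 10.38 and 10.62 and at 10.05, 10.23, 10.00, 9.56 and 9.41 (-0.62, SE 0.12). All 3 were still called without naïve replicates 1 and 2 and without 4 and 5. Aqp3, the water and glycerol channel of keratinocytes, lay between 9.49 and 9.94 and at 9.12, 8.68, 9.37, 8.64 and 8.45 (-0.82, SE 0.15, adjusted p = 0.00493). Ppargc1a, a coactivator of mitochondrial genes, lay between 5.40 and 6.46 and at 4.87, 5.20, 4.63, 4.89 and 5.17 (-0.92, SE 0.15). Rnf208, Tns4, Ube2g1, Tacc2, Entrep1 and Cystm1 completed the 12 widest downward gaps, with log2 fold changes from -0.94 to -0.39. Of these 12 genes, Tacc2 was no longer called without naïve replicates 4 and 5 or with the naïve and 7-day arrays alone, and the other 11 were.

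The wound-matrix genes moved as a group, with a range of separation. Of 27 measured matrix proteins, 19 rose and none fell, 14 of the 19 held against every naïve array, and the median log2 fold change was 1.35, against -0.02 over all genes. Of all genes, 7.85% were higher and 3.13% were higher and held. Col8a1, a short-chain collagen of vessels and wounds, lay between 6.15 and 7.15 in naïve skin and at 7.66, 8.36, 8.63, 9.85 and 8.69 at 7 days (2.12, SE 0.29). Col6a3 and Fbln2, of collagen VI and fibulin 2, were at 1.80 and 1.30 and also held. Of 19 collagen-processing enzymes, 15 rose and none fell, 10 held, and the median was 1.02, including the lysyl oxidase Loxl1 (2.06), the procollagen proteinase Bmp1 (1.30) and the collagen galactosyltransferase Colgalt1 (0.74, SE 0.11, naïve 6.60 to 6.81 and 7 days 7.08 to 7.96). Of 22 matrix proteases and inhibitors, 8 rose and none fell, and 5 held: Timp1, the plasminogen activator Plat (2.12), Mmp19 (1.08), the urokinase receptor Plaur (0.75) and the membrane metalloproteinase Mmp14 (1.15, named after its value was seen). Without naïve replicates 4 and 5, 9 of the 19 enzymes and 6 of the 22 proteases and inhibitors were called. With the naïve and 7-day arrays alone, 8 and 4 were.

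A list score averages the list's genes in an array after each gene has been centred on its mean of the 16 arrays. Matrix-protein scores were -0.51, -0.42, 0.00, -1.18, -1.70 and -0.38 in naïve replicates 1 to 6 and 0.36, 0.73, 0.73, 1.50 and 0.42 at 7 days. The groups did not overlap, and naïve replicates 4 and 5, whose beta-actin signal was high for 3 prime minus middle but low for 3 prime minus 5 prime, were lowest. The part of RNA integrity in this difference was not tested. Without these arrays, 16 of the 27 matrix proteins were still called and the median was 0.99, and with the naïve and 7-day arrays alone 8 were called. In bulk tissue, more cells of a type and more RNA per cell cannot be told apart.

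Some proteoglycan genes and most genes of the secretory machinery tested also rose. Of 27 genes of glycosaminoglycans and proteoglycans, 10 rose, of which 8 held, and 1 fell, which was Sdc4. Of all genes, 7.85% were higher and 2.66% lower. Without naïve replicates 4 and 5, 8 of the 27 were called higher and 1 lower, and with the naïve and 7-day arrays alone 6 and 1 were. Vcan, the large proteoglycan versican, had 7-day values of 8.44, 8.88, 9.21, 9.85 and 8.71 against 6.23 to 7.91 in naïve skin (1.93, SE 0.27, adjusted p = 0.00159). Chsy1, a chondroitin synthase, and Has2, a hyaluronan synthase, were at 1.84 and 1.18 and held as well. Of 26 genes of endoplasmic reticulum folding and export, 17 rose and none fell, 8 held and the median was 0.62. Without naïve replicates 4 and 5, which had the lowest scores of this list (-0.50 and -0.61), 7 were called, and with the naïve and 7-day arrays alone 4 were. Examples were Ssr1 of the translocon (0.92), Kdelr2 of the retrieval pathway (0.88), P4hb, both a disulfide isomerase and a prolyl hydroxylase subunit (0.81), and Pdia6, another disulfide isomerase (0.74), all of which held. Of 20 genes of myofibroblasts and TGF-beta signalling, 5 rose and none fell, and 14 were positive and 6 negative. The fibroblast protease Fap (1.51) and the activin subunit Inhba (0.76) held. Acta2 (0.21), Tagln (0.34), Cnn1 (-0.57) and Ccn2 (-0.52) did not pass, and all 6 genes were named after their values were seen. Without naïve replicates 4 and 5, 1 gene of this list was called, and with the naïve and 7-day arrays alone 1 was.

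Macrophage genes rose in number but seldom separated the groups. Of 22 markers, 16 rose and none fell, with a median of 1.26, but 1 held against every naïve array, Lyz2, the lysozyme of myeloid cells, named after its value was seen. Its naïve values were 10.02, 10.62, 11.33, 8.92, 7.51 and 10.20 and its 7-day values 11.47, 11.95, 12.07, 12.42 and 11.68 (2.15, SE 0.49, adjusted p = 0.0139). Cd68, a lysosomal glycoprotein, was at 7.81, 7.83, 8.99, 7.01, 7.05 and 8.07 in naïve skin and at 8.69, 9.51, 9.56, 9.62 and 9.03 at 7 days (1.49, SE 0.29, adjusted p = 0.00729). C1qa, of the first complement component made by macrophages, was at 9.42, 9.33, 10.62, 7.56, 5.86 and 9.38 and at 10.45, 11.24, 11.14, 11.28 and 10.51 (2.23, SE 0.61, adjusted p = 0.0314). In all 3, naïve replicate 3 was the highest naïve array and replicates 4 and 5 were the lowest, and the overlap in Cd68 and C1qa came from naïve replicate 3 alone. C1qa was called in 7 of the 11 single-array omissions.

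Macrophage scores showed the same order, at -0.43, -0.27, 0.45, -1.29, -1.65 and -0.43 in naïve skin and 0.27, 0.83, 0.87, 0.88 and 0.32 at 7 days, so that naïve replicate 3 lay above the 7-day replicates 1 and 5. Without naïve replicates 4 and 5, 7 of the 22 were called and the median was 0.89, without naïve replicates 1 and 2 there were 18, and with the naïve and 7-day arrays alone there were 2. The 2 beta-actin ratios of naïve replicates 4 and 5, which departed in opposite directions, moved with this result too, and their part in it was not tested. Ctss, a lysosomal protease (1.32), Fcer1g, an Fc receptor chain (1.47), and Aif1 (0.74) were called with overlap. Of 16 lymphocyte markers only Cd4 rose (1.47, SE 0.30), a gene that rat macrophages also express, where 7.85% of all genes were higher. Of 13 neutrophil and mast cell markers none passed, with a median of -0.04.

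Complement, lysosome and innate-sensing genes included members that did separate. Of 14 complement genes, 10 rose and none fell, where 7.85% of all genes were higher, and 4 held. These were the anaphylatoxin receptor C5ar1 (1.28, SE 0.17, naïve 6.55 to 7.60 and 7 days 7.82 to 8.60), C3 (1.61, SE 0.24), the C1 inhibitor Serping1 (1.88, SE 0.37) and factor I, Cfi (0.44, SE 0.09). C1qb, at 2.22 (SE 0.51), overlapped through naïve replicate 3, whose 9.23 lay above the 9.19 and 9.05 of 7-day replicates 1 and 5. Of 24 lysosome genes, 12 rose and none fell, and 4 held: Lipa, Cd63, and, named after their values were seen, Glb1 (1.26) and Grn (0.92). Lipa, the lysosomal acid lipase, lay between 7.22 and 7.47 in naïve skin and at 8.22, 8.23, 8.34, 8.73 and 8.25 at 7 days (1.03, SE 0.09, adjusted p = 8.21e-05). Of 23 genes of the acute phase and innate sensing, 9 rose and none fell, and Lbp, C3 and the receptor Tlr2 (1.28) held, while Lcn2, a siderophore-binding protein, was at 1.91 with overlap. Without naïve replicates 4 and 5, 8 complement, 7 lysosome and 3 acute phase genes were called, with the lysosome median at 0.36 against 0.63, and with the naïve and 7-day arrays alone 3, 4 and 3 were.

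**Figure D3:**
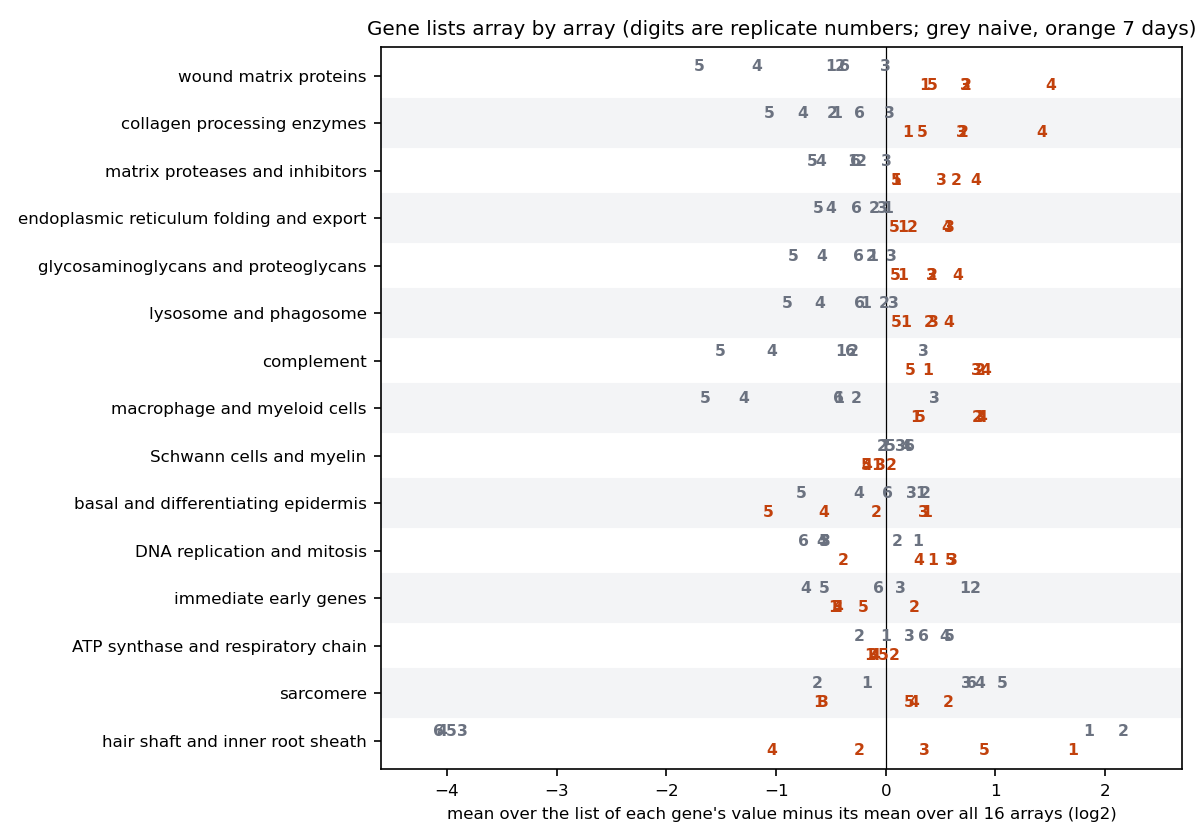
List scores (x axis, log2 units, averages over the genes of a list after centring each gene on the 16 arrays) for 15 gene lists, with a grey digit for each naïve and an orange digit for each 7-day replicate. Wound-matrix scores do not overlap between groups, macrophage scores overlap through naïve replicate 3, and hair scores split naïve replicates 1 and 2 (1.85 and 2.16) from replicates 3 to 6 (-4.08 to -3.86).

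Vessel and chemokine genes were divided. Of 19 endothelial and adhesion genes, 9 rose and none fell, with a median of 0.51, and Vcam1, Plvap and Eng held. The count was 3 without naïve replicates 4 and 5, 5 without replicates 1 and 2, 6 with array medians subtracted and 1 with the naïve and 7-day arrays alone. Vcam1, an adhesion molecule for leukocytes, lay between 4.10 and 5.78 in naïve skin and at 6.81, 8.0, 7.25, 8.83 and 6.80 at 7 days (2.57, SE 0.40, adjusted p = 0.00295). Plvap, of endothelial diaphragms, and Eng, a TGF-beta co-receptor, were at 0.69 and 0.73. Of 25 chemokines, 3 rose and 1 fell, where 7.85% of all genes were higher and 2.66% lower. Ccl6, a myeloid chemokine, rose by 2.40 (SE 0.51) and held. Its naïve values were 8.11, 8.54, 9.64, 7.16, 5.51 and 8.57 and its 7-day values 10.15, 10.66, 10.14, 10.28 and 10.37. Cxcl12 rose by 0.83 and held by 0.05. Cxcl13, which attracts B cells, was at 5.97, 6.53, 9.07, 5.46, 5.54 and 6.40 and at 7.92, 9.03, 9.0, 9.69 and 7.76 (2.19, SE 0.54, adjusted p = 0.0202), so that the overlap came from naïve replicate 3 alone. Ccl27, a keratinocyte chemokine, fell (-1.75), and it too overlapped, through naïve replicates 1 and 2 and 7-day replicate 2.

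Across the 671 higher genes with overlap, naïve replicate 3 reached the 7-day range in 373, replicate 1 in 256, replicate 2 in 207 and replicate 6 in 155, but replicates 4 and 5 in 41 and 28. Leaving out naïve replicate 3 alone ended the overlap in 203 of them, more than any other naïve array. From the other side, 7-day replicates 1 and 5 reached into the naïve range in 383 and 344, and replicates 3 and 4 in 73 and 31. Arg1, an enzyme of alternatively activated macrophages and of keratinocytes, showed a different pattern, at 8.35, 8.43, 5.88, 6.82, 5.67 and 5.43 in naïve skin and 9.02, 8.74, 8.85, 9.53 and 8.33 at 7 days (2.13, SE 0.49, adjusted p = 0.0147). Here naïve replicates 1 and 2 were the high ones. In the 251 lower genes with overlap, naïve replicates 2 and 1 reached the 7-day range in 143 and 122, and 7-day replicate 2 reached the naïve range in 125.

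**Figure D4:**
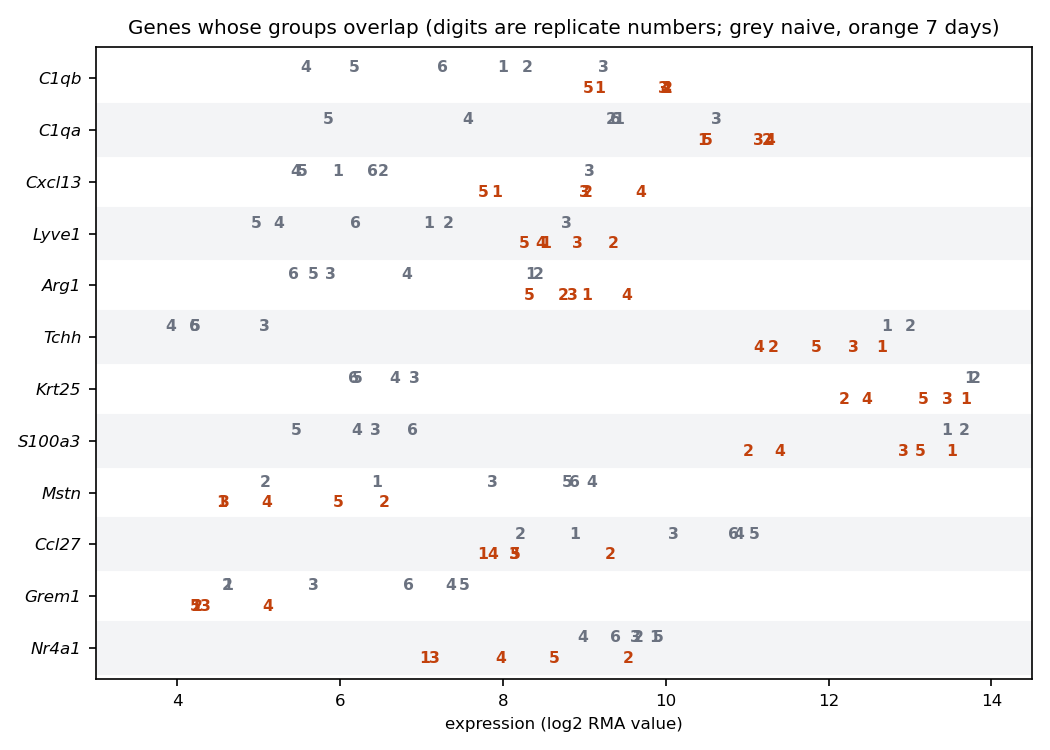
Log2 RMA values (x axis) of 12 genes whose groups overlap, with a grey digit for each naïve and an orange digit for each 7-day replicate. In C1qa, C1qb, Cxcl13 and Lyve1 naïve replicate 3 reaches the 7-day range, and in Tchh, Krt25 and S100a3 naïve replicates 1 and 2 lie at 12.71 or above while the other naïve arrays lie at 6.92 or below.

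Lower genes with overlap were led by Mstn, which encodes myostatin, a brake on muscle growth. It was at 6.45, 5.08, 7.87, 9.09, 8.79 and 8.87 in naïve skin and at 4.54, 6.54, 4.58, 5.10 and 5.97 at 7 days (-2.34, SE 0.64, adjusted p = 0.0315), and was called in 5 of 11 single-array omissions. Grem1, a BMP antagonist, was at 4.61, 4.61, 5.67, 7.36, 7.53 and 6.84 and at 4.22, 4.24, 4.34, 5.11 and 4.22 (-1.68, SE 0.48, adjusted p = 0.0368), called in 3 of 11. In both, naïve replicates 1 and 2 were close to the 7-day arrays and replicates 4 to 6 were far above them. Mlf1, a myeloid leukaemia factor abundant in muscle, was at -1.63 (SE 0.34), and the sialidase Neu2 at -1.59 (SE 0.43). Neither held, and neither was called without naïve replicates 4 and 5. Of 20 BMP and hair inductive signals, 3 fell, which were Bmp2, Fgf18 and Grem1, and 1 rose, Fgf7, a keratinocyte growth factor (0.67, with overlap). Of all genes, 2.66% were lower and 7.85% higher.

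Genes of hair shafts and inner root sheaths had the largest differences that did not pass. Tchh, which encodes trichohyalin, was at 12.71, 13.00, 5.07, 3.92, 4.22 and 4.21 in naïve replicates 1 to 6 and at 12.65, 11.32, 12.30, 11.14 and 11.85 at 7 days (log2 fold change 4.66, SE 1.54, adjusted p = 0.0657). Krt25, an inner root sheath keratin, was at 13.73, 13.81, 6.92, 6.68, 6.21 and 6.16 and at 13.69, 12.19, 13.46, 12.47 and 13.16 (4.08, SE 1.32, adjusted p = 0.0613). All 5 arrays at 7 days and naïve replicates 1 and 2 were high, and naïve replicates 3 to 6 were low, with nothing between. The 4 low naïve values of Tchh lay near the bottom of the scale and the high values of Krt25 near its top, so the sizes are uncertain. S100a3 (3.71), Mt4 (3.57), Gjb2 (3.05) and Krt71 (2.93) had the same split. Of 13 genes of this list none passed, with 13 of 13 positive and a median of 2.05 but a median naïve range of 7.02. Without naïve replicates 1 and 2 all 13 were called higher, with a median of 4.22, and without naïve replicates 4 and 5 none were.

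Genes of cell division moved with the hair genes among the naïve arrays. Of 25 genes of DNA replication and mitosis, 6 rose, none fell and none held, with a median of 0.61, where 7.85% of all genes were higher. Cdk1, the mitotic kinase, was at 8.39, 8.13, 6.76, 6.69, 6.99 and 6.45 in naïve skin and at 8.55, 7.51, 8.91, 8.57 and 8.83 at 7 days (1.24, SE 0.34, adjusted p = 0.0315). Naïve replicates 1 and 2 again lay near most 7-day arrays, while 7-day replicate 2 lay below both. Mcm6 and Mcm4 of the replicative helicase were at 0.92 and 0.72 and Bub1 of the spindle checkpoint at 0.92. Without naïve replicates 1 and 2, 22 of the 25 were called, and without replicates 4 and 5 none were.

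Muscle genes went the other way and depended on the same arrays. Of 28 sarcomere genes none passed, 26 were negative and the median was -0.43, with scores of -0.17, -0.63, 0.74, 0.86, 1.07 and 0.78 in naïve skin and -0.62, 0.57, -0.57, 0.25 and 0.22 at 7 days. Without naïve replicates 1 and 2, 26 were called lower and 2 higher. Myh4, a fast myosin heavy chain, was at 11.95, 11.01, 12.53, 13.08, 12.86 and 12.78 and at 8.96, 12.43, 10.92, 11.83 and 11.66 (-1.21, SE 0.53, adjusted p = 0.144). Of 29 genes of ATP synthase and the respiratory chain, 6 fell and none rose, where 2.66% of all genes were lower. Atp5po held (-0.22, with a gap that rounds to 0.00), and 26 of the 29 were called lower without naïve replicates 1 and 2. With array medians subtracted 17 of the 29 fell. The amount of muscle in each sample was not measured otherwise, and its part in these values was not tested.

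Genes known to mark denervated muscle had few calls. Of 21 measured, Runx1 (1.05) and Ncam1 (0.55) rose and Mstn and Dok7 (-0.38), an activator of the synaptic kinase MuSK, fell. Of all genes, 7.85% were higher and 2.66% lower, so the share that rose was near that of all genes. Of the 21, 9 were positive and 12 negative. Chrnd (1.28), Myh3 (0.85) and Chrng (0.44), named here after their values were seen, did not pass. Their highest 7-day values were 8.48, 6.51 and 6.98, against highest naïve values of 6.11, 5.40 and 5.70. Runx1, a transcription factor that is also active in skin and leukocytes, held by 0.05, with naïve values of 8.10, 8.06, 7.09, 7.27, 7.19 and 7.25 and 7-day values of 8.39, 8.15, 8.90, 8.74 and 8.56. Chrna1, the acetylcholine receptor subunit of muscle, lay between 5.20 and 5.91 in naïve skin and at 8.25, 5.48, 8.78, 6.65 and 6.92 at 7 days (1.60, SE 0.51, adjusted p = 0.0568) and did not pass. Ankrd1, a stress-responsive muscle and wound gene, lay between 4.51 and 4.74 and at 8.81, 5.12, 9.36, 5.86 and 6.23 (2.47, SE 0.71, adjusted p = 0.0383). Replicates 1 and 3 were the highest 7-day arrays in both genes and replicate 2 the lowest. Ankrd1 held against every naïve array, but the spread at 7 days was wide and it was called in 5 of 11 single-array omissions and not without naïve replicates 4 and 5.

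The same 7-day replicates 1 and 3 were lowest in Nr4a1 and Dusp1. Nr4a1, a nuclear receptor induced within minutes of many stimuli, was at 9.86, 9.66, 9.62, 8.98, 9.90 and 9.38 in naïve skin and at 7.04, 9.54, 7.16, 7.98 and 8.63 at 7 days (-1.50, SE 0.36, adjusted p = 0.0183). It was the 1 of 26 immediate early genes to pass, where 2.66% of all genes were lower. Dusp1, a phosphatase of stress kinases, was at 8.87 or above in naïve skin, lowest in replicate 4, and at 7.57, 10.33, 7.72, 9.17 and 8.79 (-1.42, SE 0.50, adjusted p = 0.0802). Fos was at -1.08 (adjusted p = 0.111). The list scores ran from -0.73 to 0.82 in naïve skin and from -0.48 to 0.26 at 7 days, so the groups overlapped throughout.

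Calls among Schwann cell and myelin genes went both ways, and 14 of the 21 were negative. Of the 21, 2 rose and 3 fell, where 7.85% of all genes were higher and 2.66% lower. The median was -0.11, and 3 held, against 445 upward and 127 downward of 14217 genes in all. With array medians subtracted, 2 rose and 6 fell. The 2 that rose were Mpzl1 and Ncam1 (0.55, with overlap), which is also among the muscle denervation genes. Scn7a and Prx, the periaxin of myelinating Schwann cells, held downward, and Mpzl1, a relative of myelin protein zero that many cell types express, held upward (0.85, SE 0.12, naïve 7.37 to 8.10 and 7 days 8.50 to 8.90). Prx lay between 6.31 and 6.81 and at 6.13, 6.25, 5.86, 6.20 and 6.24 (-0.42, SE 0.11, adjusted p = 0.0225). L1cam, an adhesion molecule of unmyelinated axons and Schwann cells, was at -0.34 with a gap of -0.04. Mbp, a myelin protein, was at 6.85, 6.24, 7.55, 7.16, 6.83 and 7.46 in naïve skin and at 5.73, 7.04, 5.96, 6.24 and 6.41 at 7 days (-0.74, SE 0.27, adjusted p = 0.0862). The lineage factor Sox10 (-0.15, SE 0.14) and S100b (-0.11, SE 0.31) did not pass, which does not show that they did not change.

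Calls among axon and growth factor genes were about as frequent as among all genes, of which 7.85% were higher and 2.66% lower. Gap43, the growth cone protein that Schwann cells can also express, was at 4.90, 4.87, 5.30, 4.97, 4.87 and 4.75 in naïve skin and at 5.73, 6.58, 5.92, 6.30 and 5.27 at 7 days (1.02, SE 0.18, adjusted p = 0.00451). Its gap was -0.03, between naïve replicate 3 and 7-day replicate 5, and the gene was called in all 11 single-array omissions. Uchl1, an axonal ubiquitin hydrolase, was at 0.58 (SE 0.13) with overlap, and these were the 2 of 20 axon and nerve ending genes to pass. Of 21 neurotrophic factors and receptors, Ntf3, the neurotrophin 3 gene, fell (-0.48, SE 0.11, adjusted p = 0.0173), Gfra2, a neurturin receptor, rose (0.43, SE 0.12, adjusted p = 0.0355) and neither held. Ntf3 was at 5.40, 5.09, 5.66, 5.79, 5.56 and 5.90 and at 5.07, 5.23, 4.96, 5.09 and 5.11, and naïve replicate 2 was the array that overlapped. Bdnf lay between 4.19 and 4.52 in both groups, near the bottom of the scale, so that whether it changed cannot be told.

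Lists of other cell types of skin held few calls, where 7.85% of all genes were higher and 2.66% lower. Of 17 epidermal genes, Aqp3 and Krt15, a keratin of basal and bulge cells (-0.60, with overlap), fell and none rose. Of 14 wound-epidermis genes, Itga5, the fibronectin receptor subunit, rose (0.64, named after its value was seen), with a list median of 0.04, or -0.04 with array medians subtracted. Of 19 adipocyte genes, Gpd1 (-0.98) and Acsl1 (-0.58) fell, both with overlap and both also used by muscle. Among 20 genes of fatty acid and sterol synthesis, Fads1, a desaturase, rose by 1.15 and held by 0.03, but was called in 3 of 11 single-array omissions. None of 13 Merkel cell and melanocyte genes or 4 red blood cell genes passed, which does not show that they did not change. Positive values were found in 8 of the 13 and 2 of the 4. The largest were Dct (1.30, SE 0.97) and Hbb (1.89, SE 0.88), both named here after their values were seen. Of 23 interferon and antigen presentation genes 1 rose, Ifit2 (0.58, named after its value was seen).

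**Figure D5:**
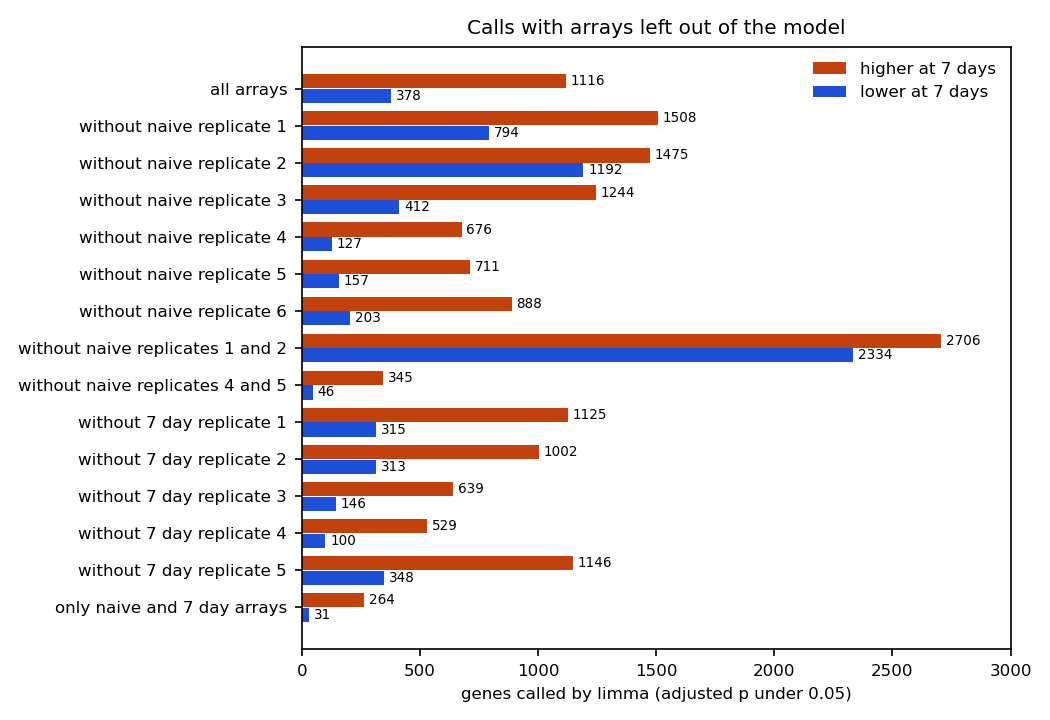
Number of genes called by limma at an adjusted p under 0.05 (x axis, from 0), higher in orange and lower in blue, with all arrays and with the arrays named on the y axis left out. The counts run from 264 higher and 31 lower with the naïve and 7-day arrays alone to 2706 and 2334 without naïve replicates 1 and 2.

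Of the 388 genes with a log2 fold change of at least 1 in size, 129 did not pass, 62 of 309 higher and 67 of 79 lower. In 126 of the 129 the naïve arrays alone spanned more than the fold change. Leaving out naïve replicates 1 and 2 lost 43 higher and 16 lower calls and gained 1633 and 1972. Leaving out naïve replicates 4 and 5 lost 774 and 334 and gained 3 and 2. The calls lost without replicates 4 and 5 included Ankrd1 and C1qtnf3 (2.19), a secreted relative of adiponectin, and those lost without replicates 1 and 2 included Efemp1 (1.06), an elastic-fibre protein, and Cdkn1c (0.96), a cell cycle inhibitor.

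At 14 days, most of the genes with the widest upward gap were lower than at 7 days. By limma between the 2 times, 10 of the 12 were lower at 14 days, where 10.1% of all genes were lower and 8.86% higher. Since the 12 were chosen for high values in the same 7-day arrays, this is a description. Lbp ran from 5.70 to 8.04 at 14 days against 8.72 to 10.47 at 7 days and 3.96 to 5.41 in naïve skin (14 minus 7 days, -2.69, adjusted p = 0.00418). Timp1 ran from 8.47 to 9.84 (-2.18, adjusted p = 0.00527), which was between the naïve and the 7-day ranges. Fn1 ran from 11.73 to 12.79 (-0.69, adjusted p = 0.184) and Gpr15lg from 5.08 to 7.64 (-1.13, adjusted p = 0.0913), and neither passed. Of the 12 genes with the widest downward gap, Bmp2 (0.67) and Cystm1 (0.35) were higher again at 14 days. Sdc4, at 10.22 to 10.47, and Scn7a, at 4.67 to 5.51, remained below every naïve array at 14 days.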

How the data were processed

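RNA of 16 rat skin samples (naïve n = 6, 7 days n = 5, 14 days n = 5) was measured on the Affymetrix Rat Genome 230 2.0 array. The deposited values are log2 expression that the authors obtained by RMA, with R 3.0.1 named in the submitters' processing notes. The RMA version was not given in the sources used here. RMA includes quantile normalization, so a shift common to most genes is not preserved. Of 31099 probesets, 57 controls, 9780 without a gene and 436 with several genes were left out. The other 20826 were collapsed to 14217 genes by the median probeset (4525 genes had more than 1), with 14167 symbols brought up to date through Entrez IDs in RefSeq and 50 kept as annotated.

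limma 3.58.1 in R 4.3.3 fitted a mean per group over all 16 arrays with moderated variances. Python 3.11.15, pandas 2.3.3 and matplotlib 3.10.9 were used for the rest. Calls are at a Benjamini-Hochberg adjusted p under 0.05 over all genes. A change held where all 5 values at 7 days lay beyond all 6 naïve values. In 1 simulated data set for 7 days against naïve, 200 of 14217 genes were changed (50 per size and direction). There limma recovered 96% and 90% of genes at log2 changes of 1 and -1. It recovered 64% and 64% at 0.5 and -0.5, and 4.85% of calls were false. Whether these shares apply to the real arrays, which were least alike in naïve skin, was not tested.

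The samples compared, the 32 gene lists (95 entries not measured) and the genes to describe (4 not measured) were chosen with earlier results of these data known. Named genes are the 12 called genes with the widest gap each way, the 6 each way with the largest fold change among called genes with overlap and among genes not called, up to 4 per list by moderated statistic, a fixed set, and up to 4 each of the calls lost or gained without naïve replicates 1 and 2 or 4 and 5. Not all of these are printed, and genes outside the rule are stated as named after their values were seen. Alternatives covered probeset choice, scaling, dim genes, arrays in the model, array weights, robust moderation, a replicate block, thresholds and omitted arrays. The number of arrays limits the precision.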

Additional observations from a re-analysis of the deposited data

Results flagged for a closer look

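Of 242 sets of values (each described gene in the naïve or the 7-day arrays), 11 held an array far from the rest of its group. This share is no higher than the 5% of sets that chance gives, so the arrays are only described. At 7 days, replicate 2 read 5.45 for Bub1 (others 6.41 to 6.66), 7.51 for Cdk1 (others 8.55 to 8.91) and 9.32 for the chemokine Ccl27 (others 7.75 to 8.15). Both Bub1 and Cdk1 act in mitosis, so this array was low in these cell division genes. At 7 days, replicate 4 read 12.47 for Krt5 (others 12.92 to 13.03), 10.15 for Tacc2 (others 10.52 to 10.61) and 7.21 for Rnf208 (others 7.64 to 7.75). The same array was high in Lipa, at 8.73 (others 8.22 to 8.34), and in Grem1, at 5.11 (others 4.22 to 4.34). Among naïve arrays, replicate 3 read 9.07 for Cxcl13 (others 5.46 to 6.53), and replicate 5 read 7.34 for S100b (others 8.88 to 9.60) and 8.33 for Tns4 (others 7.95 to 8.07).

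Among the 24 genes with the widest gaps, 12 differed between 14 and 7 days in limma's direct test. Of all genes, 10.1% were lower and 8.86% higher at 14 days. The 24 were chosen for extreme values in the same 7-day arrays, so a move back toward naïve skin is favoured and only described. Lbp fell by 2.69 from 7 to 14 days (adjusted p = 0.00418), and the log2 difference was -2.18 for Timp1 (0.00527) and -1.88 for Cthrc1 (0.0203). The log2 difference was -1.65 for P4ha3 (adjusted p = 0.00505), -1.61 for Sfrp2 (0.0310), -1.60 for Lrrc17 (0.0110) and -1.59 for Srpx2 (0.0113). It was -1.54 for Il1rl1 (adjusted p = 0.00465), -1.29 for Col5a3 (0.00539) and -0.90 for Msln (0.0347). All 10 of these had risen at 7 days, and the 14-day mean of each lay between its naïve and 7-day means. The other two had fallen at 7 days and rose to 14 days, Bmp2 by 0.67 (adjusted p = 0.0327) and Cystm1 by 0.35 (0.0101).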

How the results depend on the processing

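The main counts were 1116 genes higher and 378 lower, of which 445 and 127 held against every naïve array, and the values here follow that order. The cause of no shift was tested. With naïve and 7-day arrays alone they were 264, 31, 230 and 29. Array weights gave 2131 and 1711. Without naïve replicates 1 and 2 they were 2706, 2334, 1515 and 1464, and without replicates 4 and 5 they were 345, 46, 296 and 41. At an adjusted p under 0.01 they were 337, 38, 276 and 34, and with a log2 change of at least 1 in size 247, 12, 140 and 3. With array medians subtracted 1492 were lower and 488 held downward, and the median log2 fold change of all genes was -0.10 against -0.02. Quantile normalizing again gave 729 and 242.

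Leaving out single arrays gave 529 to 1508 higher, 100 to 1192 lower, 361 to 676 held upward and 74 to 269 held downward. The count of higher genes moved by over 1.5 times without naïve replicate 4 (676) or 5 (711) and without 7-day replicate 3 (639) or 4 (529). The count of lower genes did so without naïve replicates 1, 2, 4, 5 and 6 (794, 1192, 127, 157 and 203) and 7-day replicates 3 and 4 (146 and 100). Genes held upward numbered 676 without naïve replicate 3. Those held downward numbered 217, 269 and 80 without naïve replicates 1, 2 and 4, and 74 and 208 without 7-day replicates 4 and 5.

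Same-numbered naïve and 7-day arrays had correlated deviations of 0.583, -0.552, 0.00274, 0.156 and 0.289 for replicates 1 to 5, so the numbers were not taken to pair the samples. With the replicate block 117 genes were lower and 62 held downward, while 746 were higher. Of the values of 121 described genes under the alternatives, 2228 kept direction and side of the threshold, 263 lost the call, 40 gained it and 3 turned direction. All 3 were S100b, which was not called (-0.11), at 0.022 in the fit with a replicate block, at 0.016 with naïve replicates 1 and 2 omitted and from -0.43 to 0.022 over the single omissions, the former without naïve replicate 5 and the latter without 6. Probeset choice, leaving out the dimmest 25% of genes and robust moderation moved none of the 4 counts by over 1.5 times.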
